A study of Mus musculus with 6 samples.

Results

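The mitochondrial ribosomal proteins are described here by the transcripts of their genes in mouse muscle. Members were the probe sets whose single platform gene symbol begins with Mrpl or Mrps and a number. On this array several short probes that read one transcript form a probe set. The rule found 156 probe sets of 76 genes, out of 18193 genes with a probe set of their own symbol, and it did not use measured values. By symbol, 47 genes (104 probe sets) belong to the large subunit and 29 genes (52 probe sets) to the small subunit. Muscle RNA from mice on the 129SvJ background was measured on 6 Affymetrix Mouse Genome 430 2.0 arrays, 1 per biological replicate. Whether a replicate is 1 mouse is not stated. There were 3 replicates labelled wild type (WT) and 3 labelled SIRT6KO (KO), a knockout of the NAD-dependent deacylase SIRT6. The comparison asks whether transcripts of the mitochondrial ribosome differ between these labels. The sources used here give neither the muscle sampled, the ages and sexes of the mice nor the deleted part of the gene.

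Mitochondria hold their own ribosome, the mitoribosome, which translates the few proteins that mitochondrial DNA encodes, all of them subunits of the respiratory chain and ATP synthase. Its RNAs come from mitochondrial DNA, but every one of its proteins is encoded in the nucleus, made in the cytosol and imported. The small subunit reads the messenger RNA, and the large subunit joins amino acids and passes the new chain to the inner membrane. Some of the proteins have relatives in bacterial ribosomes and others are found only in mitochondria. Muscle depends on this translation for its oxidative capacity.

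Sirt6 itself did not part the labels. Its probe set read 23.2, 15.1 and 21.3 in the WT and 22.6, 18.3 and 13.7 in the KO arrays (limma adjusted p = 0.947), and whether it lies in the deleted part is not known here. Xist, transcribed from the inactive X chromosome, read 24.5 to 31.3 in the WT and 715.4 to 1165.7 in the KO arrays at its brightest probe set, while the Y-linked Eif2s3y read 44.5 to 77.1 and 1.1 to 4.1. Label and sex therefore cannot be told apart in any value below. Array medians were between 10.8 and 15, and the hybridization controls of WT replicate 1 were 1.93 times those of WT replicate 2, against 0.968 to 1 times in the other 4 arrays. With 3 arrays per label, array number limits the precision. The muscle markers Ckm, Acta1 and Ttn were among the brightest signals on every array, at 8033.3 or more.

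On the deposited scale most mitoribosomal protein genes had lower mean values in the KO arrays, none passed the test, and scaling to the hybridization controls turned the direction. Each gene was represented by its brightest probe set, that is, the one of highest 6-array mean, and the difference was taken as KO minus WT on the log2(intensity + 16) scale. Every fold between the labels is the fitted one on that scale, which differs from the ratio of the mean intensities. As deposited 61 of 76 genes were lower on average and 15 higher, against 53.2% lower among all genes, and with scaling to the hybridization controls 30 were lower. In bulk muscle, fewer cells of a type and less RNA per cell cannot be told apart. The median difference was -0.25 for the 76 genes and -0.02 for all genes. Among the 6762 genes at least as bright as the dimmest member, a background chosen after seeing the data, the median was 0.01 and 48.7% were lower. Limma called 0 of the 156 member probe sets at a Benjamini-Hochberg adjusted p of 0.05, against 0.00888% of all 45037 probe sets. The lowest adjusted p of a member was 0.529. At an unadjusted p under 0.05, 13 member probe sets were lower and 4 higher, and of all probe sets 4.99% were lower and 3.57% higher. Counted by gene at the brightest probe set, 0 of 76 genes passed (0.0055% of all genes) and 9 were lower and 0 higher at an unadjusted p under 0.05. That compares with 6.29% lower and 3.54% higher among all genes, and with 8.73% and 5.41% among the genes at least as bright as the dimmest member.

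The groups did not overlap in 14 of the 76 genes, all 14 with the KO arrays lower, which is 18.4% of the genes. They were Mrpl4, Mrpl12, Mrpl23, Mrpl39, Mrpl40, Mrpl42, Mrpl45, Mrpl49 and Mrpl58 of the large and Mrps6, Mrps7, Mrps11, Mrps21 and Mrps22 of the small subunit. In Mrpl4, Mrpl39, Mrpl40 and Mrps7, named after their values were seen, the gap was narrow. Mrpl4 read 163.4 or more in the WT and 159.4 or less in the KO arrays, Mrpl39 181.2 and 180.8, Mrpl40 64.3 and 61.9, and Mrps7 126.7 and 123.6. The gap was narrow in Mrpl49 and Mrps21 as well, at 58 and 57.5 and at 312.8 and 310.1. Among all genes 8.34% lay entirely lower and 4.51% entirely higher in the KO arrays. Among the genes at least as bright the corresponding shares were 10% and 5.26%. Over single probe sets, 22 members lay entirely lower and 5 entirely higher, against 7.29% and 5.02% of all probe sets. With quantile normalization 41 lay entirely lower and 15 higher (56 in all), and with scaling to the hybridization controls 2 lay entirely lower and 10 higher (12 in all). The shares of all probe sets above are for the deposited scale, and none is given for these settings. With scaling to the hybridization controls other genes moved up too, and 30.7% of all genes were lower on average. The 95% interval of the difference lay within 2-fold either way in 61 of the 76 genes. It reached a 2-fold lower level in 12 genes and a 2-fold higher level in 3.

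**Figure D1:**
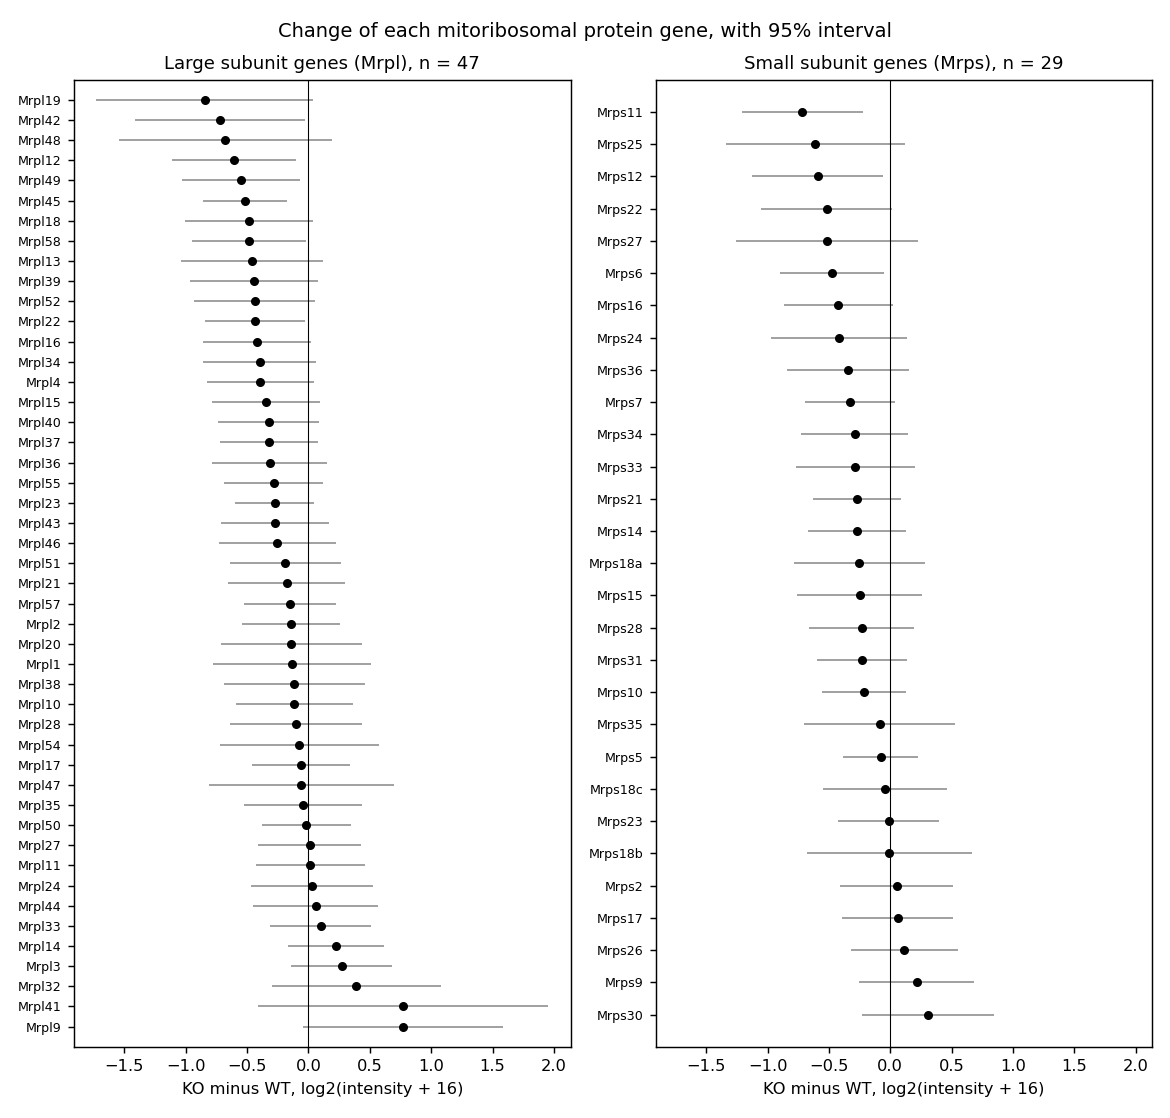
The x axis gives the KO minus WT difference of each gene's brightest probe set on the log2(intensity + 16) scale, with large subunit genes on the left and small subunit genes on the right, and lines are 95% intervals from limma (n = 3 arrays per label). Of the 76 points 61 lie below 0, and 30 do with scaling to the hybridization controls; 9 intervals exclude 0 without adjustment.

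The 3 WT arrays did not share one level. The median distance of the 76 genes from their 6-array mean was 0.40 in WT replicate 1, 0.12 in WT replicate 2 and -0.16 in WT replicate 3. It was -0.12, -0.09 and -0.08 in KO replicates 1, 2 and 3. WT replicate 3 thus had the lowest median of all 6 arrays, and the other 2 WT arrays had the highest. WT replicate 1 held the highest value of the 6 in 58 of the 76 genes. The lowest value was in KO replicate 3 for 29 genes and in WT replicate 3 for 27.

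Brightness differed between arrays for other genes as well. Genes at least as bright as the dimmest member had medians of 0.21, 0.01 and -0.24 in the WT and -0.15, 0.09 and 0.07 in the KO arrays. Measured against those medians, a comparison added after seeing the data, the members stood at 0.19, 0.11 and 0.08 in the WT and at 0.03, -0.18 and -0.15 in the KO arrays. On that footing the 3 KO arrays lay below the 3 WT arrays for the members together, but not for the small subunit, where KO replicate 1 at 0.100 lay above WT replicate 3 at 0.097. Against the median of all genes they stood at 0.26, 0.12 and -0.04 in the WT and at -0.02, -0.13 and -0.07 in the KO arrays, and the groups overlapped. WT replicate 1, the array with the bright controls, bore on the result: without it 47 of the 76 genes were lower, against 43.7% of all genes. With scaling to the hybridization controls 30 of 76 (39.5%) were lower, against 30.7% of all genes and 21.5% of the genes at least as bright, and that scaling moved the median of all genes from -0.017 to 0.125. It moved that of the genes at least as bright to 0.29. Relative to the latter the median of the members was -0.26 as deposited, -0.24 with this scaling, -0.28 with quantile normalization and -0.26 with median centring.

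**Figure D2:**
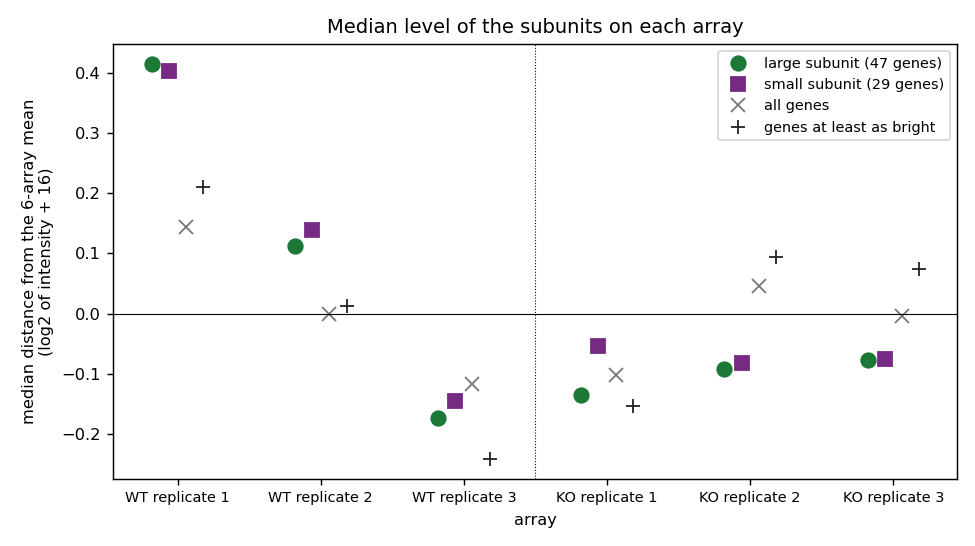
Points give, for each array, the median distance from the 6-array mean in log2(intensity + 16), for the large subunit, the small subunit, all genes and the genes at least as bright as the dimmest member. Both subunits are highest in WT replicate 1 and lowest in WT replicate 3, and they lie furthest apart in KO replicate 1 (large -0.136, small -0.054). With scaling to the hybridization controls the KO minus WT median turns positive for both subunits.

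Large subunit genes with lower mean values in the KO arrays had differences of 1.35-fold to 1.65-fold at the lowest p-values. Mrpl45 encodes a protein beside the exit of the peptide tunnel that helps to hold the ribosome at the inner membrane. It read 231.4, 215.8 and 172.7 in the WT and 147.5, 135.8 and 132.8 in the KO arrays, a mean of 206.6 ± 30.4 against 138.7 ± 7.77 (SD, n = 3 each). Every KO value lay below every WT value, with a fitted difference of 1.43-fold and an interval of KO over WT of 0.551 to 0.886 (limma adjusted p = 0.529). Mrpl12, the stalk protein that recruits translation factors, read 311.5, 223.9 and 206 in the WT and 186.8, 160.7 and 121.4 in the KO arrays. Its groups did not overlap and differed 1.52-fold (limma adjusted p = 0.562). Mrpl58, a peptidyl-tRNA hydrolase that frees stalled ribosomes, read 246.9, 180.3 and 143.3 in the WT and 133.8, 127.6 and 124 in the KO arrays. The 3 KO values were close together, the WT values were not, and the difference was 1.40-fold (limma adjusted p = 0.58).

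Mrpl49, a mitochondria-specific protein, read 105, 86 and 58 in the WT and 46.2, 57.5 and 47.8 in the KO arrays at its brightest probe set. A further probe set of the gene read 48.8, 42.3 and 52.2 against 42, 23.4 and 18.4, so that both parted the labels, if narrowly (limma adjusted p = 0.564 for each). Mrpl22, a relative of a bacterial tunnel protein, read 158.3, 128.6 and 111.9 in the WT and 84.2, 112.3 and 85.9 in the KO arrays, and KO replicate 2 overlapped with WT replicate 3. Mrpl42 had the brightest probe set among the members, which says nothing of its transcript level relative to other genes. It read 1078.8, 711.4 and 562.6 in the WT and 532.5, 533.4 and 324.5 in the KO arrays, 1.65-fold lower (limma adjusted p = 0.58). WT replicate 1 was the highest and KO replicate 3 the lowest, a spread within each label that exceeds the gap of 562.6 to 533.4 between them.

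Mrpl19, named after its values were seen, had the lowest difference of the 76 genes at -0.84 on the log2 scale. Its values of 154.6, 93.8 and 54.8 in the WT and 67.5, 48.4 and 26.6 in the KO arrays overlapped (limma adjusted p = 0.595). The other bright large subunit probe sets differed less. Mrpl23, a relative of a bacterial protein at the tunnel exit, read 402.1 ± 53.3 and 327.4 ± 1.27, with 326 to 328.5 in the KO arrays and 350.4 or more in the WT arrays. Mrpl51 read 620.5 ± 144 and 534.4 ± 43.4 and overlapped. With scaling to the hybridization controls the difference of Mrpl23 and of Mrpl51 changed sign (0.04 and 0.13).

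In the small subunit Mrps11, a relative of a bacterial protein on the platform where messenger RNA leaves, had the lowest p. It read 71.7, 67.1 and 51.3 in the WT and 47.2, 26.8 and 24.9 in the KO arrays. Its mean intensities were 63.4 ± 10.7 and 32.97 ± 12.4. The fitted difference on the log2(intensity + 16) scale was 1.64-fold, with an interval of KO over WT of 0.432 to 0.857 (limma adjusted p = 0.529). The groups did not overlap, and KO replicate 1 lay near WT replicate 3. Mrps12, a relative of the bacterial decoding-centre protein, read 178.9, 153.2 and 113 in the WT and 117.4, 94 and 68.6 in the KO arrays, with KO replicate 1 above WT replicate 3. Mrps6, a relative of a bacterial platform protein, read 141.5, 95.8 and 102.2 against 68.8, 70.6 and 89.7 without overlap. Its other probe set was lower on average too, by 0.43 on the log2 scale.

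Mrps22, a mitochondria-specific small subunit protein, read 100, 95.6 and 83.8 in the WT and 71.7, 76.9 and 38 in the KO arrays. The KO values were all lower, KO replicate 3 by the widest margin (limma adjusted p = 0.592). Mrps16 read 232.5 ± 50.8 and 167.3 ± 18.4 and overlapped, because WT replicate 3 at 173.9 lay below KO replicate 1 at 188.4. Of the bright small subunit probe sets, Mrps21 read 344.4 ± 33.03 and 283.4 ± 39.2, narrowly without overlap, and Mrps28 298.8 ± 64.6 and 248.7 ± 22.8 with overlap. The last 2 differences changed sign with scaling to the hybridization controls (0.04 and 0.08).

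The other 15 members had higher mean values in the KO arrays, 46 with scaling to the hybridization controls. Mrpl9, a relative of bacterial L9, read 203.3, 179.7 and 130 in the WT and 179.9, 307.9 and 476.8 in the KO arrays. KO replicates 2 and 3 exceeded every WT array and KO replicate 1 did not. Mean intensities were 171.0 ± 37.4 and 321.5 ± 149, and the fitted difference on the log2(intensity + 16) scale was 1.71-fold (limma adjusted p = 0.596). Its other probe sets behaved alike, at 55.9, 92.6 and 77.4 against 83.5, 137 and 202.8 and at 112.4, 124.4 and 100.1 against 121.3, 196.6 and 275.2. Mrpl41, a mitochondria-specific protein, read 150.7, 132.2 and 97.7 in the WT and 116.4, 177.8 and 528.8 in the KO arrays. Its fitted difference of 1.71-fold on that scale rested on KO replicate 3 (limma adjusted p = 0.709). Without that array the difference was 0.18 on the log2 scale. A further probe set of Mrpl41, nearly as bright, read 196.7, 189.5 and 125.9 against 143.3, 202 and 321.2. Its difference was smaller, at 0.31 on the log2 scale, with overlap.

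Mrpl32, which a membrane protease must cut before it joins the large subunit, read 291.2, 239.2 and 144.2 in the WT and 228.2, 273 and 384.8 in the KO arrays. Mrpl3, near the peptidyl transferase centre, read 140.8, 112.5 and 102.1 against 124.6, 140 and 174.5. Both pairs of groups overlapped. Mrpl14 at the interface of the subunits read 186.0 ± 34.4 and 218.4 ± 23.1. Mrps9 read 63.1 ± 16.3 and 74.8 ± 10.97, and its 4 probe sets were all higher on average. Mrps26, Mrps17 and Mrps2 differed by 0.11, 0.06 and 0.05 on the log2 scale, less than their standard errors of 0.18, 0.19 and 0.19. KO replicate 3 held the highest of the 6 values in 12 members and the lowest in 29, and the members scattered more there, with an SD of distances of 0.43 against 0.15 to 0.20 in the other 5 arrays. Genes at least as bright scattered more there too, at 0.57 against 0.22 to 0.32.

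**Figure D3:**
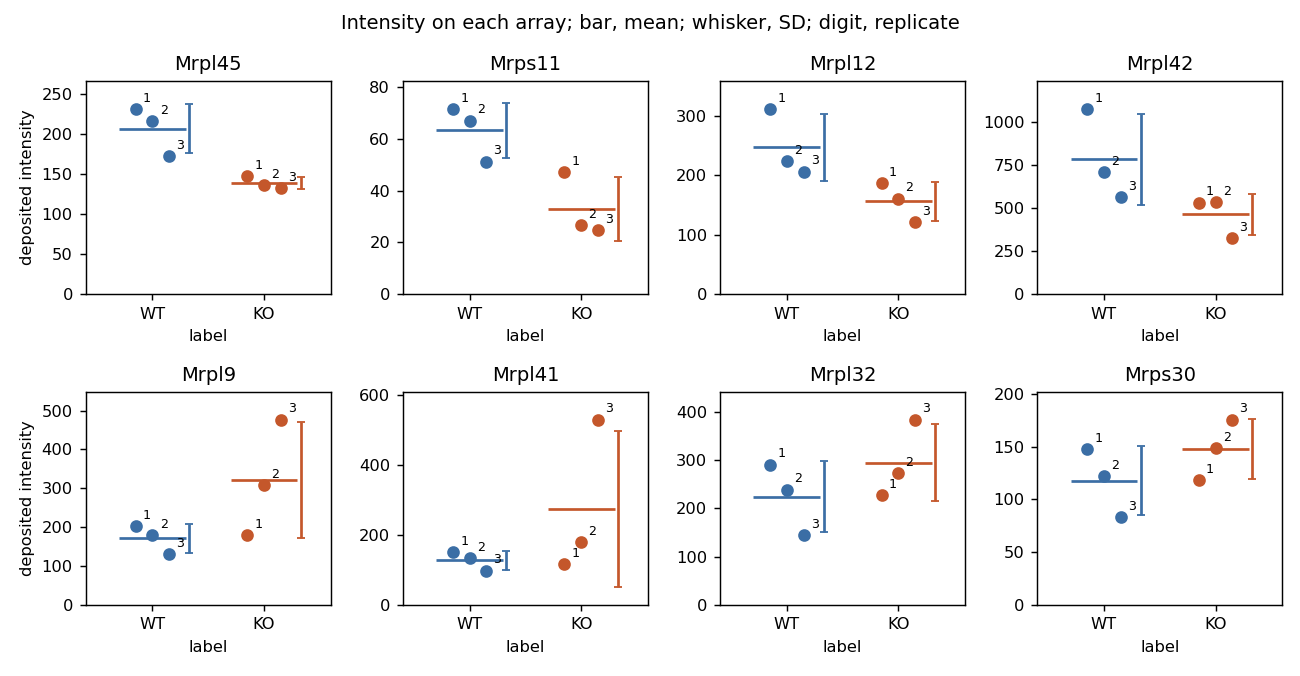
Deposited intensity on each array (y axis, linear from 0) for 4 genes lower and 4 genes higher on average in the KO arrays, with the replicate number beside each point, the mean as a bar and the SD as a whisker (n = 3 per label). Mrpl45, Mrps11, Mrpl12 and Mrpl42 do not overlap between labels, and in Mrpl9, Mrpl41, Mrpl32 and Mrps30 KO replicate 3 is the highest array.

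The subunits had medians close to each other. The median difference was -0.19 for the 47 large subunit genes, of which 37 were lower, and -0.25 for the 29 small subunit genes, of which 24 were lower, and scaling to the hybridization controls gave 0.12 and 0.04. The groups did not overlap in 9 large (19.1%) and 5 small (17.2%) subunit genes, all lower, against 8.34% of all genes and 10% of the genes at least as bright. The large minus small difference of the medians was 0.06. It was -0.02 without KO replicate 3, 0.02 without WT replicate 3 and -0.07 with the mean of each gene's probe sets. On single arrays, large minus small in median distance from the 6-array mean had a pooled within-label SD of 0.035. That SD belongs to another quantity and does not measure the spread of the 0.06. The subunit medians were -0.04 and -0.11 without WT replicate 1 and -0.36 and -0.38 without WT replicate 3. On single arrays the large and small subunits were 0.415 and 0.402 from the 6-array mean in WT replicate 1, and -0.077 and -0.075 in KO replicate 3. They lay furthest apart in KO replicate 1, at -0.136 and -0.054.

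Symbols do not always follow the structure. Mrps30 and Mrps18a carry small subunit names but sit in the large subunit, and Mrps36 is now known as part of the oxoglutarate dehydrogenase complex. Mrps30 read 147.8, 122.1 and 83.2 in the WT and 118.4, 148.7 and 175.6 in the KO arrays, the highest difference among the genes named Mrps (0.31, limma adjusted p = 0.755). Of the 3 relatives of bacterial S18, Mrps18a had a difference of -0.25, as the members' median, and Mrps18b and Mrps18c were near 0, and all 3 were above 0 with scaling to the hybridization controls. Mrps18a read 227.0 ± 65.4 and 185.7 ± 36.5, Mrps18b 91.0 ± 25.2 and 91.8 ± 34.2, and Mrps18c 95.2 ± 32.0 and 89.3 ± 7.17. Mrps36 read 464.8 ± 69.8 and 367.3 ± 85.5. Placed by structure, the medians were -0.19 for 49 large and -0.26 for 26 small subunit genes.

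Proteins with a bacterial relative and proteins found only in mitochondria were compared as well. The 47 genes with a bacterial relative had a median of -0.21, with 36 lower and 7 without overlap, and 17 were lower with scaling to the hybridization controls. The 28 mitochondria-specific genes had a median of -0.28, with 24 lower and 7 without overlap, and 12 were lower with that scaling. Among all genes 8.34% lay entirely lower and 4.51% entirely higher. Within the large subunit the medians were -0.14 for 30 and -0.27 for 19 genes, and within the small subunit -0.25 for 17 and -0.28 for 9 genes. The shares without overlap were 10% and 31.6% in the large, and 23.5% and 11.1% in the small subunit. These are descriptions, and the difference between the classes was not tested.

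Several probe sets of a gene often agreed in direction, although not always. Of the 42 genes with more than 1 probe set, 32 had at least 2 with a mean intensity of 16 or more. In 22 of these all such probe sets had the same sign, 18 lower and 4 higher. Mrpl15, with 8 probe sets, had 4 of that brightness and all were lower on average, but by unlike amounts. From the brightest to the dimmest of the 4, the differences were -0.34, -0.009, -0.34 and -0.80 on the log2 scale. The one furthest from 0 read 258.8, 277.8 and 191.5 against 188.3, 105.9 and 112.2. The signs were mixed in 10 genes: Mrpl11, Mrpl21, Mrpl27, Mrpl3, Mrpl38, Mrpl44, Mrpl51, Mrps10, Mrps23 and Mrps5. For Mrpl11, whose protein binds at the factor site of the large subunit, the third in brightness read 113.8, 124.9 and 80.3 against 130.2, 173.5 and 158.4 without overlap. Another differed the other way, at 174.8, 128.3 and 113.2 against 106.8, 112.5 and 150.3. In Mrps23 the mixed signs came with small differences, since its 3 probe sets lay between -0.014 and 0.033 on the log2 scale, while in Mrps10 they lay at -0.21 and 0.56. Members dimmer than 16 numbered 32 probe sets.

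Upstream sequence was available for 67 of the 76 genes in RefSeq's GRCm38.p6 promoter entries, and 9 had none. Promoters of mitochondrial protein genes are known for sites of the activators NRF1 and GABP, an ETS factor. In the 250 bases before the start, on either strand, the NRF1 letters (GCGCA, any base, then GCGC) stood in 9 of 67 members (13.4%) against 4.23% of 27025 genes, and CCGGAAG (the ETS letters) in 17 (25.4%) against 7.83%. By subunit, the NRF1 letters stood in 8 of 41 large (19.5%) and 1 of 26 small subunit genes (3.85%), and the ETS letters in 11 (26.8%) and 6 (23.1%). AAGATGGC (YY1) stood in 4 (5.97% against 1.83%) and GGGCGG (the SP family) in 33 (49.3% against 35.4%). TNAAGGTCA, the letters of the oestrogen-related receptors, stood in 0 members against 1.3% of genes. The motifs can overlap one another, and the genes counted include non-coding ones. Of the 52 members with an entry that were lower on average 6 held the NRF1 letters and 14 the ETS letters, and of the 15 higher 3 and 3. A match is a description of the sequence, not a bound site.

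The sequences below belong to the 2 members lower and the 2 members higher with the lowest p-values, shown to set the letters upstream of genes of either direction side by side. Capitals mark a motif, all are on the plus strand of GRCm38.p6 and run 5′ to 3′. For Mrpl45 and Mrpl9, where the annotated gene begins further upstream, 30 bases around each match are given.
Mrpl45, chr11:97315586-97315615, NRF1 letters: gaagcctcctGCGCAGGCGCagctggctct
Mrpl45, chr11:97315668-97315697, NRF1 letters: tggtttcattGCGCACGCGCgaacccactg
Mrpl9, chr3:94443298-94443327, NRF1 letters: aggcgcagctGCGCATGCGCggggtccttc
Mrpl3, chr9:105053118-105053267, the 150 bases before the start with the ETS letters: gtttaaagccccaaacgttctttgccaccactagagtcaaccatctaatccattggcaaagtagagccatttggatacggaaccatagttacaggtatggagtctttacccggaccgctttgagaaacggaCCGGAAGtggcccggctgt
Mrps11, chr7:78783090-78783130, the whole stretch between it and Mrpl46, with the SP letters: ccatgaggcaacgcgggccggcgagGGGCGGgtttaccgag
The matches of Mrpl45 and Mrpl9 show that a gene lower on average and a gene higher on average hold the same NRF1 letters.

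Many members start back to back with another gene. Within 1000 bases, 25 of the 67 members (37.3%) had a gene starting on the other strand, against 12.2% of all genes with an entry. Mrps11 and Mrpl46 are such a pair, with starts 42 bases apart, so that a gene of each subunit shares the 41 bases printed above. Mrpl46 read 129.8, 129.2 and 83.7 in the WT and 90.9, 109.2 and 76.9 in the KO arrays, with overlap, whereas Mrps11 did not overlap. Mrps12 starts 147 bases from Sars2, the mitochondrial seryl-tRNA synthetase, which read 49.2, 74.2 and 42.2 against 52, 49.5 and 29.4. Mrpl32 starts 205 bases from Psma2, a proteasome subunit, which read 391.4, 323.8 and 256.6 against 269.9, 368.6 and 846.8. Psma2 and Mrpl32 were both highest in KO replicate 3. Of 25 neighbours measured, with Mrps11 and Mrpl46 each counted as the other's neighbour, 13 were lower and 12 higher on average. Of these 25, 16 had the same sign as the member, and 0 passed limma's test, against 0.0055% of all genes. At an unadjusted p under 0.05 there were 3, Mrps11 among them, against 6.29% of all genes lower and 3.54% higher.

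Other genes of mitochondrial translation were set beside the members in the 7 lists that follow. Of the 89 measured, 0 passed limma's test, against 0.0055% of all genes. At an unadjusted p under 0.05, 7 were lower and 3 higher, against 6.29% lower and 3.54% higher among all genes. The 4 measured mitoribosomal proteins under other symbols were all lower on average, with a median of -0.33, and 3 of 4 were lower with scaling to the hybridization controls. Ptcd3, a small subunit protein that binds RNA, read 175.5, 149.9 and 114.3 in the WT and 114.3, 100 and 59.3 in the KO arrays. Of 11 translation factors 10 were lower, with a median of -0.30, and 8 were lower with that scaling. Pdf, which removes the formyl group from new chains, read 225.8, 174.8 and 154.6 against 121.2, 101.7 and 78 without overlap (limma adjusted p = 0.524), and Mtif3, an initiation factor, 34.1 ± 7.27 and 42.1 ± 11.2. Of 19 mitochondrial aminoacyl-tRNA synthetases 13 were lower and 6 higher, with a median of -0.093, and that scaling turned the median to 0.13. Lars2, which charges leucine tRNA, read 54.7, 80.7 and 69.4 against 46.6, 48.2 and 40.7 without overlap, and Ears2 11.7 ± 5.99 and 18.1 ± 5.50.

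The assembly genes did not lean one way, with 9 of 20 lower and a median of 0.017, 11 lower with quantile normalization and 5 with scaling to the hybridization controls. Among them Nsun4, an RNA methyltransferase needed to join the subunits, read 109.5, 75.2 and 57 in the WT and 28.3, 33.1 and 20.3 in the KO arrays. All KO values lay below all WT values, by 1.13 on the log2 scale (limma adjusted p = 0.47). Ybey was dim at 3.57 ± 3.15 and 10.5 ± 3.47. Of 13 genes of mitochondrial transcription and RNA stability 5 were lower and 8 higher, with a median of 0.11, and with scaling to the hybridization controls 1 was lower and 12 higher. Tfam, which packs and transcribes mitochondrial DNA, read 108.7, 97 and 67.2 against 118, 119.1 and 133.1 without overlap, and Mterf1a was dim at 10.1 ± 1.10 and 4.77 ± 4.97.

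Of 12 nuclear activators of mitochondrial genes 3 were lower and 9 higher, with a median of 0.12, and with that scaling 2 were lower and 10 higher. Ppargc1b, a coactivator, read 177.7, 180.1 and 120.3 in the WT and 111.9, 107.6 and 23.7 in the KO arrays, and Myc was dim at 2.23 ± 0.208 and 10.7 ± 4.11. The matrix protein quality control list had 4 of 10 lower and a median of 0.022, and 5 of 10 lower and a median of -0.023 with quantile normalization. Hspd1, the chaperonin of the matrix, read 947, 812.3 and 634.2 against 562.4, 602.7 and 506.2 without overlap, and Clpx, a protease subunit, 88.7 ± 44.6 and 241.7 ± 135 with overlap. No difference between lists was tested.

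**Figure D4:**
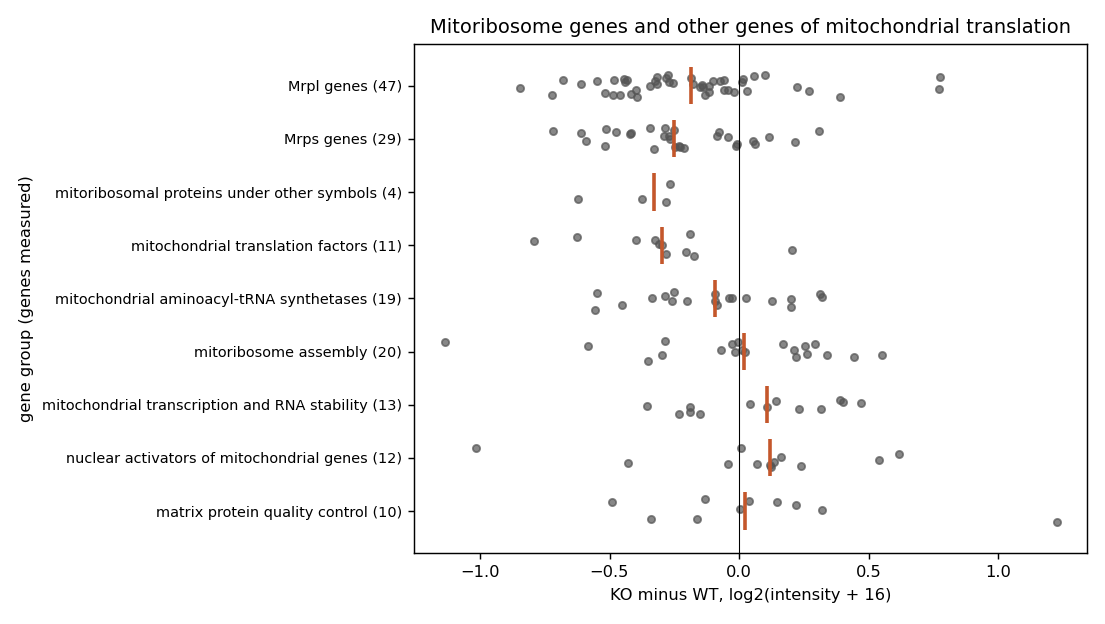
Each point is a gene's KO minus WT difference on the log2(intensity + 16) scale, by gene group, with the number measured in parentheses and the median as a vertical bar (vertical scatter within a row has no meaning). Medians run from -0.33 in the mitoribosomal proteins under other symbols to 0.12 in the nuclear activators; with scaling to the hybridization controls the medians of both subunits and of the aminoacyl-tRNA synthetases are above 0, and with quantile normalization those of the assembly and quality control lists are below 0.

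Markers of other cell types also differed in mean value between the labels. The brown adipocyte list, from a tissue rich in mitochondria, had 3 of 4 markers lower, and 2 of 4 with median centring or scaling to the hybridization controls. One of its markers, Ppargc1a, is also among the activators. The summed intensity of the list was 1090.9 to 1796.7 in the WT and 237.6 to 368.4 in the KO arrays. Ucp1 read 877.2, 570.3 and 586.1 in the WT and 129.9, 5.9 and 2.3 in the KO arrays, and Cidea was lower without overlap too. Ppargc1a differed by 0.16 and the dim Elovl3 by -0.011 on the log2 scale, both with overlap. The slow fibre list, from fibres with many mitochondria, had 7 of 7 markers higher, with sums of 695.7 to 2085.1 and 1456.5 to 6263.6. Skeletal muscle markers were lower in 7 of 8, but in 4 with quantile normalization and 2 with scaling to the hybridization controls, summing to 59710.8 to 98680.1 and 61134.2 to 61772. Fibroblast (4 of 5 lower), tendon (4 of 4 lower) and adipocyte (4 of 4 lower) markers summed to 6072 to 10376.3 and 3050.5 to 6351.4, 321.7 to 635.5 and 233.9 to 295.2, and 2938.2 to 5749 and 2273 to 4011.6. Endothelial (1 of 5 lower), macrophage (3 of 5 lower, 1 with scaling to the hybridization controls), Schwann cell (1 of 2 lower), satellite cell (0 of 3 lower) and blood (1 of 4 lower) markers had sums that overlapped. The ratio of the 3′ to the 5′ control probe set of Gapdh, a sign of RNA quality, was 0.811 to 0.846 over the arrays, and that of Actb 0.711 to 0.883. The part of these markers in the members' values was not tested.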

How the data were processed

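RNA was isolated from muscle with TriPure and biotin-labelled for hybridization, per the labels' protocols. The authors deposited linear intensities, 1 for each probe set on each array. How they were scaled, and with which software, is not given in the sources used here. After 64 control probe sets were set aside, limma 3.58.1 in R 4.3.3 was fitted to log2(intensity + 16) of 45037 probe sets without normalization (lmFit and eBayes, two-sided, Benjamini-Hochberg over all). The added 16 understates fold changes of dim probe sets. The fit was run on simulated data with independent noise for each probe set and array. Such data hold no shift shared by a whole array, so the run does not bear on the scaling. Nothing says more of the mice than biological replicate, so p-values measure the spread between these samples.

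Genes came from the platform annotation, where 34945 probe sets had 1 symbol, 932 several and 9160 none listed. Probe sets with several symbols, such as Gm6238 with Mrpl30, were not members. All 76 members matched RefSeq.

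Genes were named by a rule: the 5 lowest p-values per subunit and direction, the 3 brightest per subunit, genes whose probe sets disagree in sign, and 5 genes with a particular place in the structure. The other lists of mitochondrial translation gave 1 gene per direction. The members and lists were chosen with earlier results of these data known. Alternatives were quantile normalization, median centring, scaling to hybridization controls, a brightness filter, a trended and robust variance, a replicate block, added values of 1 and 64, leaving out single arrays, and other ways to represent a gene.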

Additional observations from a re-analysis of the deposited data

How the results depend on the processing

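No member probe set passed limma's test under any of the 14 alternatives, and the lowest adjusted p of a named gene was 0.173 (the range over all alternatives and named genes ran to 1). Over all probe sets the 4 calls became 77 with the filter, 15 with a trended and robust variance, 11 with median centring, 9 with quantile normalization and 1 with an offset of 64, and 1 to 6 with an array left out. Member probe sets without overlap numbered 56 with quantile normalization, 12 with hybridization control scaling and 32 to 74 with an array left out, where fewer arrays make overlap rarer. The share of all probe sets without overlap is given for the deposited scale only, so these counts do not set the members apart. The subunit medians became 0.12 (large) and 0.044 (small) with hybridization control scaling, and ranged from -0.36 to -0.04 and from -0.38 to -0.11 with an array left out. The large minus small difference ranged from -0.021 to 0.078 in the same way and was -0.066 with the mean of each gene's probe sets.

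Of the 38 named genes, Sirt6 included, 19 kept their sign under all 14 alternatives. With hybridization control scaling the sign changed for Mrpl21 (0.12), Mrpl23 (0.040), Mrpl38 (0.17), Mrpl51 (0.13), Mrps10 (0.074), Mrps18a (0.057), Mrps18b (0.27), Mrps18c (0.25), Mrps21 (0.041), Mrps23 (0.29), Mrps28 (0.079), Mrps5 (0.19) and Sirt6 (0.10). Median centring turned Mrps18b (0.014) and Mrps23 (0.0084), and quantile normalization Mrpl11 (-0.039) and Mrpl27 (-0.060). With an array left out the change ranged from -0.10 to 0.17 for Mrpl11, -0.12 to 0.13 for Mrpl27, -0.36 to 0.030 for Mrpl38, -0.14 to 0.25 for Mrpl44, -0.086 to 0.19 for Mrps17, -0.24 to 0.22 for Mrps18b, -0.22 to 0.18 for Mrps18c, -0.14 to 0.18 for Mrps2, -0.17 to 0.089 for Mrps23, -0.012 to 0.28 for Mrps26, -0.14 to 0.0081 for Mrps5 and -0.17 to 0.028 for Sirt6. The cause of these shifts was not tested.

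The replicate numbers are shared by both labels. Deviations of same-numbered arrays had correlations of -0.06, 0.03 and -0.06, and those of other-numbered arrays -0.04 to 0.10. These values cannot show whether the numbers pair the mice, which is not known here. With the number as a replicate block 0 of all probe sets and 0 members passed.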
